A study of Homo sapiens with 36 samples.

Results

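The hypoxia response and glycolysis genes were followed as a list of 38 named genes, taken by symbol and matched to the NCBI GeneIDs of 3 RNA-seq tables. The list held 14 glycolytic enzymes and 24 other genes of the hypoxia response. Of the 38, 36 were present among 16431 genes in NT2/D1-A4 cells, 36 among 17035 in 2102EP-C1 cells given GSK-J4, and 37 among 16459 in the 2102EP-C1 knockdown experiment. All 14 enzymes were present in each table. CA9, a surface carbonic anhydrase, was in none of the 3 tables, and ANKRD37 was in the knockdown table only.

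When oxygen is low, the prolyl hydroxylases EGLN1 and EGLN3 no longer mark the HIF alpha subunits HIF1A and EPAS1 for destruction, and the stabilized subunits switch on genes for glucose uptake, glycolysis, blood vessel growth and collagen maturation. Several of these targets, EGLN1 and EGLN3 among them, feed back on the pathway, and some of its enzymes need oxygen and 2-oxoglutarate in the same way as the histone demethylases KDM6A and KDM6B. Embryonal carcinoma cells, like other fast-growing pluripotent cells, rely heavily on glycolysis even with oxygen present. HIF1A and EPAS1 are controlled mainly as proteins, which were not measured here.

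The cells were cisplatin-resistant clones, each 1 clone of a human testicular embryonal carcinoma line. For NT2/D1-A4 and 2102EP-C1 cells, the controls were labelled VC, and the study names them untreated vehicle controls. They are called untreated here. The other arms were exposed to cisplatin alone (0.5 µM over 6 h) or kept in GSK-J4 alone (1 µM over 3 days), which inhibits KDM6A and KDM6B. The last arm was taken through both steps in turn, GSK-J4 before cisplatin (the combination). In the knockdown experiment, 2102EP-C1 cells carried the empty lentiviral vector pLKO1 or hairpins against KDM6A and KDM6B (sh6A+6B), with or without the same cisplatin, and were drug-selected for the vectors. The study's methods name 1 hairpin per gene for the double knockdown. Loss of the demethylases and other effects of these hairpins or of the transduction therefore cannot be told apart. Each arm had 3 libraries, described as biological triplicates, for 36 in all, and RNA was taken 24 h after cisplatin. The median depth was 35.3, 37.2 and 88.4 M (mega) reads in the 3 experiments, in that order. P-values measure the spread between these samples, pooled over the arms of an experiment. In bulk RNA, fewer cells of a type and less RNA per cell cannot be told apart. In the knockdown experiment, KDM6A fell by 1.01 and KDM6B fell by 1.01 on the log2 scale with sh6A+6B (adjusted p = 2.1e-18 and 1.8e-14, limma-trend), and all 6 sh6A+6B libraries lay below all 6 pLKO1 libraries for both genes. GSK-J4 alone went with a KDM6B level 0.88 higher in NT2/D1-A4 and 0.81 higher in 2102EP-C1.

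Values are log2 CPM as deposited, that is, read counts scaled to the size of the library, and a member was called when its fold change was over 1.3 (0.38 on the log2 scale) with a Benjamini-Hochberg (BH) adjusted p under 0.05 by limma-trend over all genes of its table. Of 12 embryonal carcinoma markers, 11 were present, and 10, 9 and 9 of them had a mean log2 CPM over 7 in the 3 experiments. Their summed level ran from 7017 to 7141 CPM in NT2/D1-A4 controls and from 5734 to 6032 with GSK-J4 and cisplatin, and from 8125 to 8234 and from 7101 to 7349 in the same arms of 2102EP-C1. In the knockdown experiment it ran from 8036 to 8084 with pLKO1 and from 7636 to 7685 with sh6A+6B and cisplatin. Of 8 yolk sac and choriocarcinoma markers, 2, 2 and 1 were present, with a summed level of 2.30 to 4.91, 0.966 to 2.60 and 0.787 to 1.26 CPM. In NT2/D1-A4 this sum was 2.38 to 3.02 CPM in controls and 4.24 to 4.91 with GSK-J4, and in 2102EP-C1 it was 0.966 to 1.42 and 1.98 to 2.29. Of 8 fibroblast and blood cell markers 4 were present, with a summed level of 21.1 to 36.5, 78.4 to 109.0 and 87.0 to 109.0 CPM, while DCN, LUM, PTPRC and CD3E were in no table. The part of these markers in the results was not tested. The first of the 3 libraries of 2102EP-C1 with GSK-J4 and cisplatin stood apart for the glycolytic enzymes, and results that rest on it are given with and without it.

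**Figure D1:**
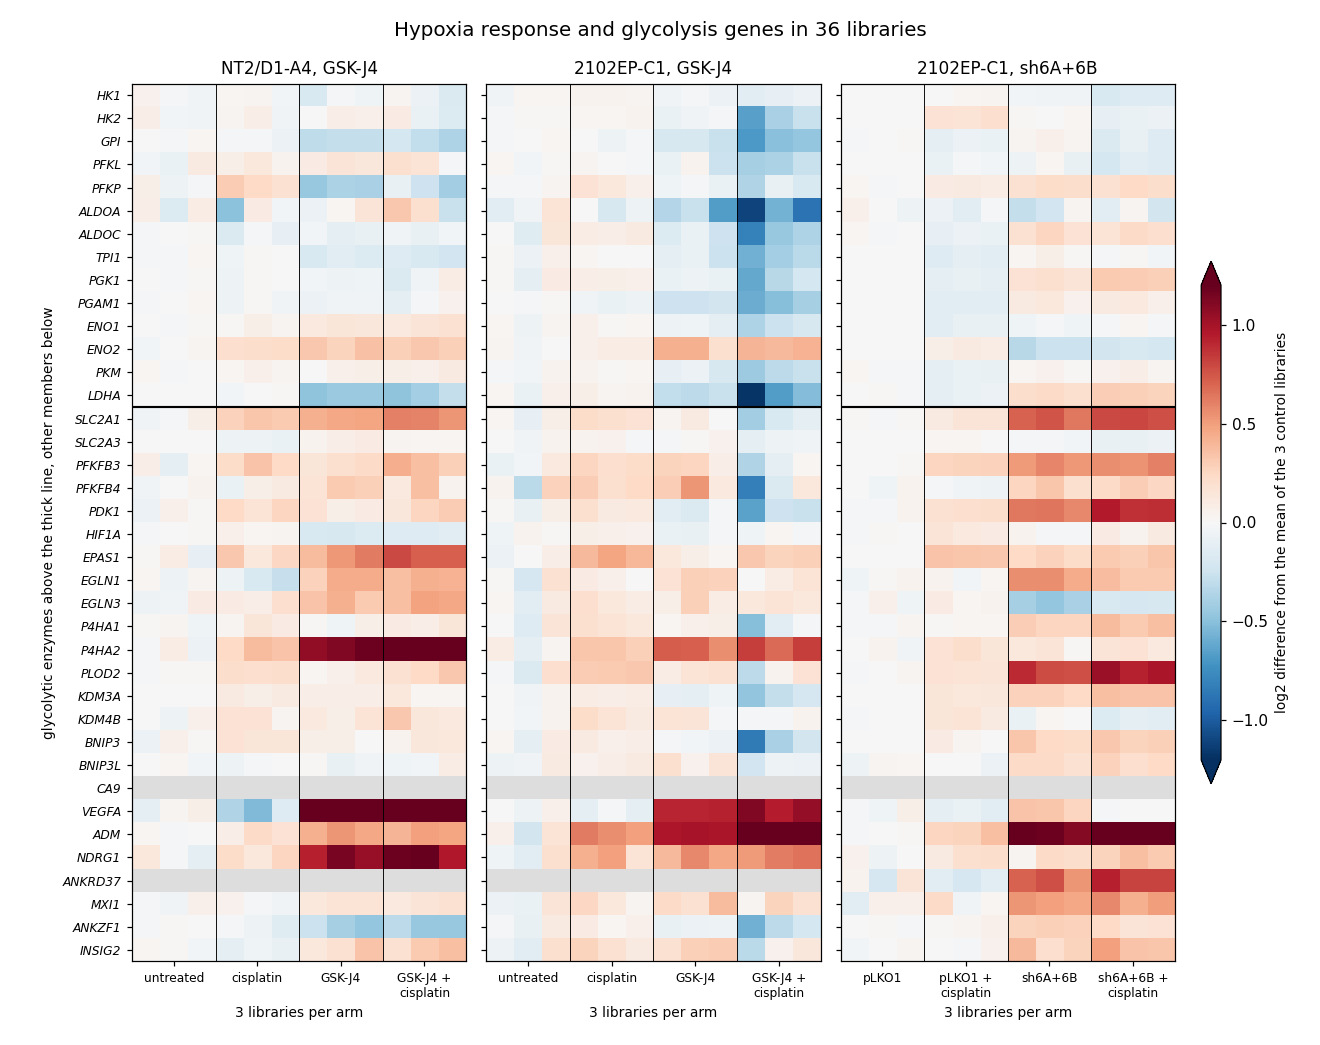
Heat map of the 38 members (rows) in 36 libraries (columns, 3 per arm) of the 3 experiments, coloured by the log2 difference from the mean of the 3 control libraries of the same experiment, with glycolytic enzymes above the thick line and grey where a gene was not in the table. The darkest colours stand for all values beyond the ends of the scale. Blue fills 13 of the 14 enzyme rows in the last arm of 2102EP-C1 with GSK-J4, deepest in the first library, and red marks VEGFA, P4HA2 and NDRG1 in the GSK-J4 arms and ADM, SLC2A1 and PLOD2 in the sh6A+6B arms.

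Levels were compared between genes only per kilobase of transcript. In untreated NT2/D1-A4 cells the member with the highest level per kilobase was ENO1 (enolase), at 2510 ± 31.4 CPM per kb (SD, n = 3), and it was 3150 ± 117.0 in untreated 2102EP-C1 cells and 3060 ± 18.4 with pLKO1. TPI1 (triose phosphate isomerase) followed at 807 ± 8.61, 1310 ± 58.3 and 1430 ± 7.09, and LDHA, which makes lactate from pyruvate, came next at 490 ± 1.34, 974 ± 49.0 and 968 ± 8.01. Of the glucose transporters, SLC2A3 stood above SLC2A1 in each experiment, at 318 ± 1.13 against 52.9 ± 2.31 CPM per kb in NT2/D1-A4 and 289 ± 8.46 against 115 ± 7.07 in 2102EP-C1. HIF1A stood above EPAS1 in the same way, at 31.8 ± 0.331 against 2.67 ± 0.174 in NT2/D1-A4 and 72.5 ± 2.15 against 11.9 ± 0.609 in 2102EP-C1. In each of these pairs the difference was larger than the SDs. ALDOA, the main aldolase of most cells, was listed at only 3.00 ± 0.289 and 5.98 ± 0.628 CPM per kb, below ALDOC (18.0 ± 0.0913 and 45.7 ± 4.61). Its annotated span (chr16:30064279-30070420, on GRCh38.p14 like all positions given) overlaps another annotated gene, LOC112694756, and reads that fall in both can be lost or split in counting, so the ALDOA values are uncertain. LOC112694756 was in none of the 3 tables. TPI1, ENO2, PDK1, HIF1A, EGLN1, BNIP3, ANKRD37 and ANKZF1 overlap a gene of the tables. P4HA2, PFKFB3 and PFKFB4 are among the members that, like ALDOA, overlap annotated genes outside the tables. The library kit keeps strand, but the strand setting of the counting was not given in the sources used here. Shared reads thus cannot be set apart for any of these members.

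The question for GSK-J4 alone was which members moved when the demethylases were inhibited without cisplatin. In NT2/D1-A4 cells, 7 members rose, against 13.8% of all genes called higher, and 2 fell, against 6.48% called lower. All 7 risers were outside the glycolytic enzymes and both fallers were glycolytic enzymes. The 22 other members had a median change of 0.17 and the 14 enzymes one of -0.05, beside 0.01 for all genes. In 2102EP-C1 cells, 4 members rose (7.79% of all genes called higher) and 1 fell (3.12% called lower). The 4 that rose, VEGFA, ADM, P4HA2 and NDRG1, were also among the 7 of NT2/D1-A4 cells.

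VEGFA (GeneID 7422, chr6:43770211-43786487), the growth factor that draws in blood vessels, had the largest change of the members in NT2/D1-A4 cells. It was at 2.93, 3.07 and 3.10 log2 CPM in the controls and at 5.15, 4.96 and 5.05 with GSK-J4. It rose 4.06-fold (2.02 ± 0.08 on the log2 scale, SE, adjusted p = 3.3e-13, limma-trend). In 2102EP-C1 cells it was at 4.08, 4.01 and 4.13 in the controls and at 4.99, 4.99 and 5.0 with GSK-J4, a rise of 0.92 ± 0.05 (adjusted p = 3.2e-13, limma-trend). Neither pair of groups overlapped.

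P4HA2 (GeneID 8974, chr5:132190147-132227853), a prolyl hydroxylase that stabilizes collagen, was at 3.39, 3.49 and 3.33 in NT2/D1-A4 controls and at 4.47, 4.51 and 4.58 with GSK-J4. The corresponding values in 2102EP-C1 were 4.37, 4.16 and 4.31 against 5.01, 5.0 and 4.84. It rose by 1.12 ± 0.06 and by 0.67 ± 0.06 on the log2 scale (adjusted p = 8.4e-11 and 1.1e-09, limma-trend). The log2 difference of its relative P4HA1 was 0.01 in NT2/D1-A4 and 0.05 in 2102EP-C1 (adjusted p = 0.86 and 0.63, limma-trend). For P4HA2 the groups did not overlap in either line.

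ADM (GeneID 133, chr11:10305073-10307397) encodes the vasodilator peptide adrenomedullin. It was at 5.55, 5.51 and 5.53 in NT2/D1-A4 controls and at 5.96, 6.06 and 5.99 with GSK-J4, a rise of 0.48 ± 0.04. In 2102EP-C1 cells the controls were at 3.54, 3.26 and 3.64 and the GSK-J4 libraries at 4.45, 4.47 and 4.46, a rise of 0.98 ± 0.07 (adjusted p = 6.1e-08 and 5.1e-11, limma-trend). NDRG1 (GeneID 10397), a stress gene linked to differentiation, rose by 1.04 ± 0.08 in NT2/D1-A4, from 3.10, 2.95 and 2.87 to 3.91, 4.11 and 4.02, and by 0.48 ± 0.09 in 2102EP-C1, from 2.70, 2.61 and 2.94 to 3.14, 3.33 and 3.21 (adjusted p = 4.6e-09 and 0.00022, limma-trend). For ADM and NDRG1 every GSK-J4 library was above every control library in both lines.

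**Figure D2:**
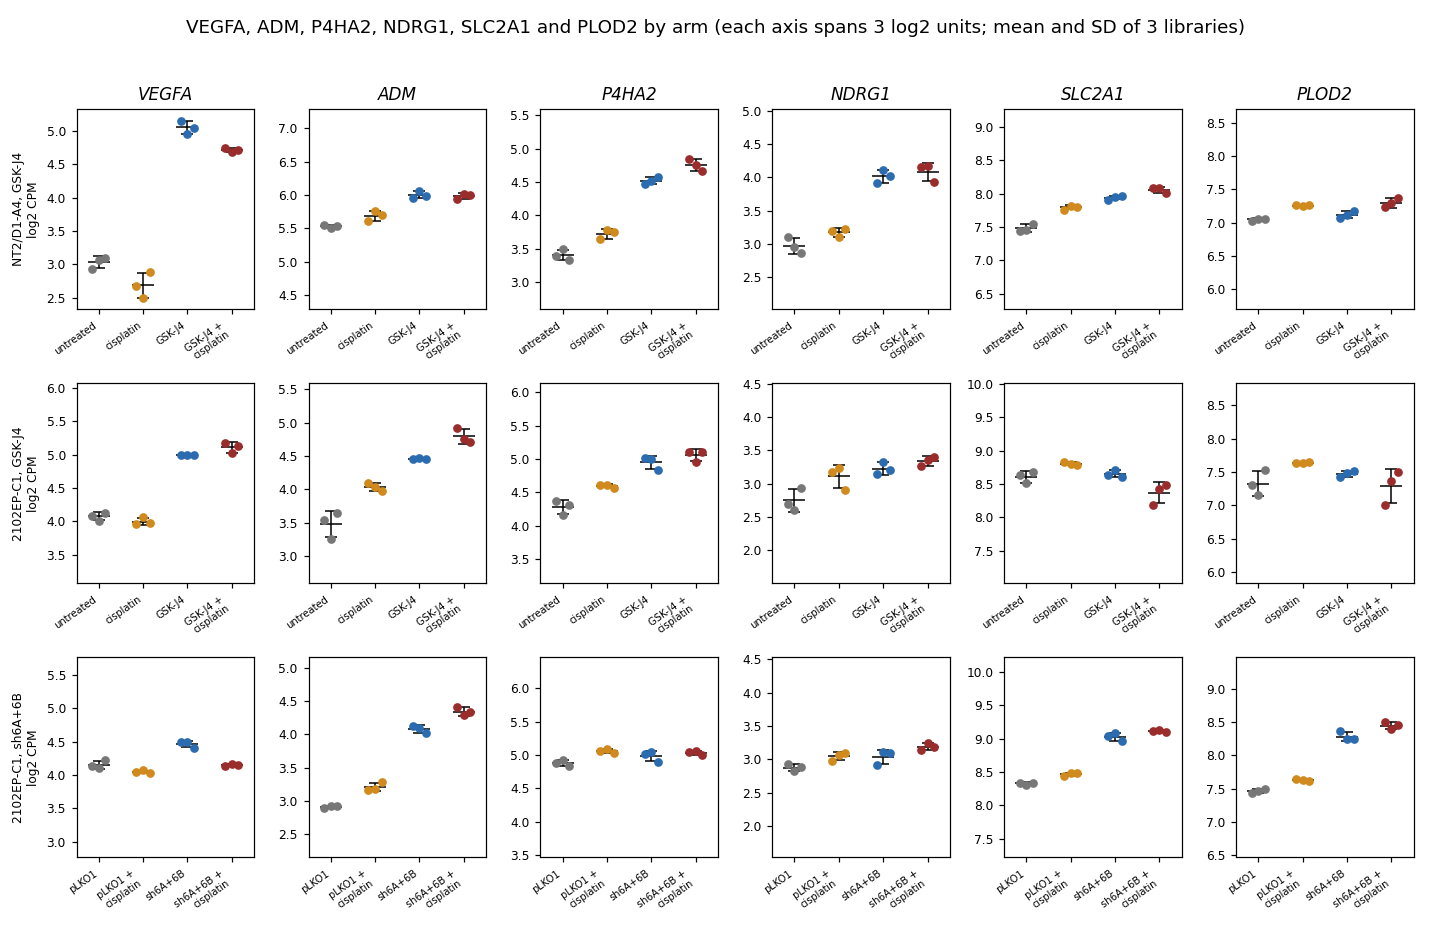
Log2 CPM of VEGFA, ADM, P4HA2, NDRG1, SLC2A1 and PLOD2 in the 4 arms of each experiment, with a point per library and black bars for the mean and SD of 3 libraries. VEGFA, P4HA2 and NDRG1 stand highest in the GSK-J4 arms of both lines, while SLC2A1 and PLOD2 stand highest in the sh6A+6B arms of the knockdown experiment.

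SLC2A1, the widely expressed glucose transporter, rose in NT2/D1-A4 from 7.44, 7.46 and 7.55 to 7.91, 7.95 and 7.96 (0.46 ± 0.04, adjusted p = 8.1e-09, limma-trend), and its difference in 2102EP-C1 was 0.04 (adjusted p = 0.52, limma-trend). The difference between the lines was not tested, since the tables were normalized separately. SLC2A3, the transporter with the higher level, differed by 0.08 and 0.02.

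Among the HIF subunits, HIF1A was 0.18 ± 0.03 lower with GSK-J4 in NT2/D1-A4 (6.96, 6.98 and 6.99 against 6.79, 6.78 and 6.81) and 0.06 ± 0.03 lower in 2102EP-C1, both under the fold limit. EPAS1 rose by 0.50 ± 0.07 in NT2/D1-A4, from 3.79, 3.87 and 3.68 to 4.16, 4.3 and 4.40 (adjusted p = 8.2e-06, limma-trend), and differed by 0.07 ± 0.04 in 2102EP-C1 (adjusted p = 0.17, limma-trend). Of the hydroxylases that destroy them, EGLN1 rose by 0.39 ± 0.06 in NT2/D1-A4, from 4.32, 4.23 and 4.33 to 4.57, 4.74 and 4.74 (adjusted p = 3.9e-05, limma-trend), just past the fold limit. EGLN3 lay just under it, at 0.36 ± 0.06. In 2102EP-C1 the differences of EGLN1 and EGLN3 were 0.25 ± 0.07 and 0.15 ± 0.07.

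Of the glycolytic enzymes in NT2/D1-A4 cells, LDHA was at 10.10 in all 3 controls and at 9.62, 9.65 and 9.65 with GSK-J4, and fell by 0.46 on the log2 scale (SE 0.04, adjusted p = 1.6e-08, limma-trend). PFKP, a phosphofructokinase that commits glucose to glycolysis, fell by 0.41 (SE 0.07, adjusted p = 5.5e-05, limma-trend), from 4.88, 4.75 and 4.79 to 4.35, 4.43 and 4.42. Without TMM scaling, which corrects library sizes, its difference was -0.361 and no longer past the fold limit. The other 12 enzymes ran from -0.29 for GPI to 0.32 for ENO2, and the 15 other members that were not called from -0.38 for ANKZF1 to 0.36 for EGLN3. In 2102EP-C1 cells, ALDOA fell by 0.43 (SE 0.12, adjusted p = 0.005, limma-trend), on the uncertain values described above, and LDHA was 0.29 ± 0.08 lower. The means of 13 of the 14 enzymes were lower with GSK-J4, while 49.7% of all genes were higher. The exception was ENO2, the enolase of neurons, at 0.35 ± 0.05.

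GSK-J4 was then compared among cisplatin-treated cells, which are other libraries than those above. In NT2/D1-A4 cells, 5 members rose (12.8% of all genes called higher) and 2 fell (7.84% called lower). VEGFA, at 2.67, 2.5 and 2.88 with cisplatin and 4.75, 4.69 and 4.72 with both, rose by 2.03 ± 0.08. P4HA2, NDRG1, EGLN1 and EPAS1 rose by 1.03, 0.91, 0.57 and 0.51, and PFKP and LDHA fell by 0.49 and 0.38 on the log2 scale. All 7 of these had also been called with GSK-J4 alone. SLC2A1 and ADM had been called there too, but at 0.26 and 0.30 among cisplatin-treated libraries they lay under the limit. LDHA in this comparison lay at the fold limit, and at -0.354 without TMM scaling it was not called. The 29 members that were not called ran from -0.33 for ANKZF1 to 0.37 for INSIG2.

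In 2102EP-C1 cells the same comparison called 15 members lower (8.82% of all genes), of which 8 were glycolytic enzymes, and 3 higher (10.5% of all genes). The enzymes had a median difference of -0.44 and the other members one of -0.18, beside 0 for all genes, and 13 of the 14 enzymes had a lower mean. The risers were VEGFA, ADM and P4HA2, at 1.11 ± 0.05, 0.76 ± 0.07 and 0.47 ± 0.06. The 5 largest falls were those of LDHA, ALDOA, ALDOC, BNIP3 and PFKFB4. LDHA (GeneID 3939, chr11:18394563-18408425) was at 11.16, 11.12 and 11.13 with cisplatin and at 9.91, 10.42 and 10.57 with GSK-J4 and cisplatin, and fell by 0.84 on the log2 scale (SE 0.08, adjusted p = 5.6e-09, limma-trend). The groups did not overlap, but the 3 combination libraries were far apart (SD 0.34, against 0.02 with cisplatin). The SE and p-value rest on a spread pooled over all arms, so they understate the spread of the combination arm.

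ALDOC, an aldolase, was at 6.29, 6.28 and 6.30 with cisplatin and at 5.39, 5.74 and 5.83 with both drugs (-0.64 ± 0.07, adjusted p = 7.4e-08, limma-trend). BNIP3 (GeneID 664, chr10:131967684-131981923), a receptor for the clearance of mitochondria, was at 7.79, 7.74 and 7.76 and at 6.83, 7.29 and 7.46 (-0.57 ± 0.08, adjusted p = 2.8e-06). PFKFB4, whose product sets the level of the activator of phosphofructokinase, was at 5.09, 4.99 and 5.03 and at 3.97, 4.62 and 4.92 (-0.53 ± 0.14, adjusted p = 0.0035). ALDOA was at 3.30, 3.10 and 3.23 and at 2.18, 2.73 and 2.41 (-0.77 ± 0.12, adjusted p = 3.9e-06). In each of these 4 genes the second group lay below the first. The SD of PFKFB4 was 0.49 with both drugs and 0.05 with cisplatin, so its SE has the same limit as that of LDHA. The other 10 that fell were HK2, GPI, TPI1, PGK1, PGAM1, SLC2A1, PDK1, P4HA1, KDM3A and ANKZF1, with log2 differences from -0.53 for GPI to -0.38 for P4HA1. HK2 is a hexokinase at the entry of glycolysis, PGK1 and PGAM1 act in its later steps, and PDK1 is the kinase that holds back pyruvate dehydrogenase. ENO2 was the enzyme with a higher mean, at 0.33 ± 0.05.

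The first library of GSK-J4 with cisplatin in 2102EP-C1 stood apart for these genes. It was the lowest of all 12 libraries for each of the 15 members that fell, and the lowest of its 3 for 31 of the 36 members and 13 of the 14 enzymes. The 15 were called as low in its arm, and the share of all genes for which it was lowest is not given. The median of the 14 enzymes against the control mean was -0.59 in it and -0.39 and -0.27 in the second and the third libraries, while in the 9 libraries of the other arms this median lay between -0.20 and 0.04. Over 10427 genes with at least 200 reads on average, its SD from the mean of its 2 fellow libraries was 0.113. The range over the experiment was 0.072 to 0.140, and only the third GSK-J4 library was higher. Without it, 10 members were called in place of 18, and the enzymes' median was -0.35. LDHA (-0.64), ALDOA (-0.64), ALDOC (-0.50), GPI (-0.46), BNIP3 (-0.39), PDK1 (-0.39) and PGAM1 (-0.39) still fell without it. PFKFB4 was at -0.26 and no longer past the test (adjusted p = 0.053, limma-trend).

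**Figure D3:**
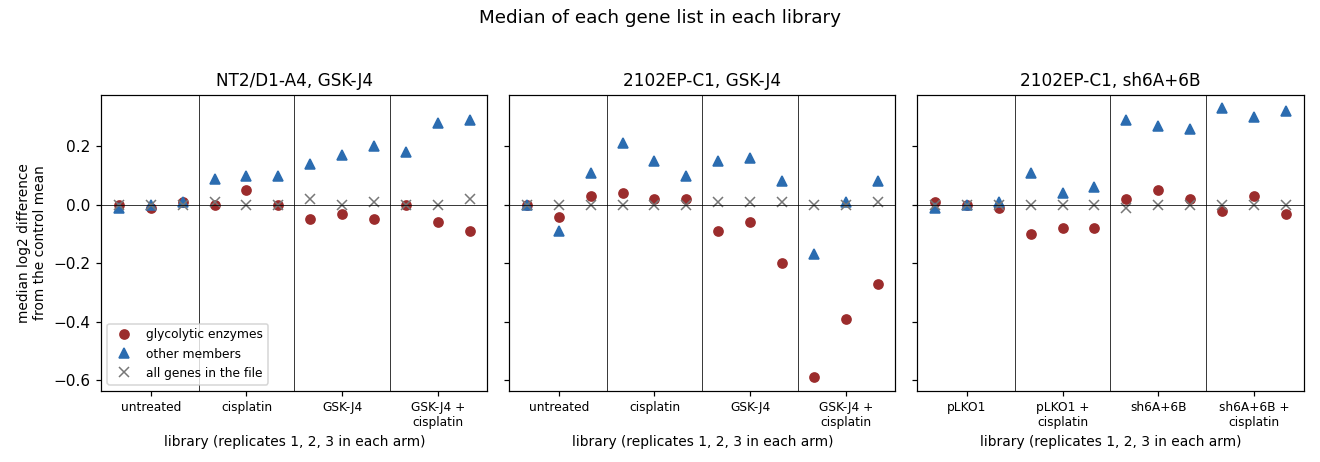
Median log2 difference from the control mean, in each of the 36 libraries, over the 14 glycolytic enzymes (circles), the other members (triangles) and all genes of the table (crosses). In the combination arm of 2102EP-C1 the enzymes lie at -0.59, -0.39 and -0.27, and in the 6 sh6A+6B libraries the other members lie between 0.26 and 0.33.

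Cisplatin alone was compared with the same control libraries as pretreatment alone. In NT2/D1-A4 cells none was called, beside 2.05% of all genes called higher and 0.396% called lower by limma-trend, while 17 of 36 had an unadjusted p under 0.05 and voom on recovered reads called 0. In the pLKO1 cells none was called either (2.53% and 0.462% of all genes), with 23 of 37 at an unadjusted p under 0.05 and 0 called by voom. The adjusted p alone was under 0.05 for 36.1% of all genes in the pLKO1 comparison. Here and below, the share of all genes at an unadjusted p under 0.05 is not given. Counts of members at that limit are therefore not read as a result about the members. In 2102EP-C1 cells 2 members rose (0.881% called higher) and none fell (0.188% called lower, 0 members lower at an unadjusted p under 0.05). EPAS1 rose by 0.42 ± 0.04 there, from 5.87, 5.94 and 6.02 to 6.33, 6.42 and 6.34 (adjusted p = 1.9e-07, limma-trend). The same gene was 0.33 ± 0.02 higher with cisplatin in pLKO1 cells (6.03, 6.04 and 6.04 against 6.38, 6.37 and 6.36) and 0.23 ± 0.07 higher in NT2/D1-A4 cells, under the fold limit. ADM rose by 0.55 ± 0.07 in 2102EP-C1, to 4.1, 4.04 and 3.97 (adjusted p = 1.8e-05, limma-trend), and was 0.29 ± 0.04 and 0.16 ± 0.04 higher in pLKO1 and NT2/D1-A4 cells.

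After GSK-J4, cisplatin called 0 members in NT2/D1-A4 cells in either direction (limma-trend and voom; 9 of 36 at an unadjusted p under 0.05), beside 0.158% and 0.219% of all genes called higher and lower. In 2102EP-C1 cells it called 6 members lower (1.31% of all genes) and 0 higher (0.916%, with 3 members higher at an unadjusted p under 0.05). These were the enzymes LDHA, ALDOA, HK2 and ALDOC, with PFKFB4 and BNIP3. LDHA was at 10.79, 10.78 and 10.82 with GSK-J4 against 9.91, 10.42 and 10.57 with both drugs (-0.50 ± 0.08, adjusted p = 0.00023, limma-trend). HK2 was at 7.54, 7.58 and 7.60 against 6.97, 7.23 and 7.35 (-0.39 ± 0.05, adjusted p = 2.3e-05). BNIP3, PFKFB4, ALDOA and ALDOC changed by -0.45, -0.60, -0.42 and -0.38. Without the first combination library no member passed the fold limit and the test, with LDHA at -0.305 (adjusted p = 7.8e-06, limma-trend), HK2 at -0.28 and BNIP3 at -0.27. The enzymes still had 13 of 14 lower means and a median of -0.21 in place of -0.27. Without the second GSK-J4 library 3 members were called, and without the third combination library 11.

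The interaction asked whether the cisplatin response differed between cells with and without pretreatment. In 2102EP-C1 cells with GSK-J4, 12 members had a lower response after GSK-J4 (0.663% of all genes called lower) and 0 a higher one (0.194% called higher; 1 member higher at an unadjusted p under 0.05). The differences were negative for 35 of the 36 members, with VEGFA the exception at 0.19 ± 0.07, and their median was -0.29 in the enzymes and in the other members alike, beside 0 for all genes. The 5 largest were PFKFB4 (-0.84 ± 0.20), PFKFB3 (-0.57 ± 0.10), LDHA (-0.54 ± 0.12), BNIP3 (-0.53 ± 0.12) and PLOD2 (-0.50 ± 0.11), with adjusted p = 0.027, 0.0021, 0.014, 0.016 and 0.016 by limma-trend. PLOD2, a lysyl hydroxylase of collagen, was at 7.30, 7.15 and 7.53 in controls and 7.63, 7.64 and 7.65 with cisplatin, but 7.42, 7.49 and 7.51 with GSK-J4 and 7.01, 7.37 and 7.50 with both. Its cisplatin libraries lay above the controls, and its combination libraries overlapped those of GSK-J4. PFKFB3, a relative of PFKFB4, was at 4.73, 4.77 and 4.92 in controls, 5.06, 5.01 and 5.03 with cisplatin, 5.07, 5.06 and 4.89 with GSK-J4, and 4.45, 4.70 and 4.83 with both. The other 7 called were INSIG2, SLC2A1, ALDOC, P4HA1, PDK1, HK2 and PGK1, from -0.49 to -0.38.

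The count of 12 rested on single libraries. It was 3 without the first combination library and 3 without the second control library, which was the lowest control for 10 of the 12, and 7 without the first control, the first or second cisplatin, or the first GSK-J4 library. SLC2A1 and PFKFB3 were called in both of the refits that gave 3. Without the first combination library the median over the enzymes was -0.22 and over the other members -0.25. Without the second control library both medians were -0.27, and the calls that were lost had changes from -0.32 for PGK1 to -0.68 for PFKFB4, with adjusted p between 0.051 for LDHA and 0.1 for PFKFB4 and INSIG2 (limma-trend). PGK1, P4HA1 and PDK1 were then also under the fold limit. In NT2/D1-A4 cells 0 members were called by limma-trend or voom, beside 0% and 0.0426% of all genes higher and lower, with 5 of 36 at an unadjusted p under 0.05. In the knockdown experiment 0 were called by either tool, beside 1.09% and 2.67% of all genes, with 23 of 37 at an unadjusted p under 0.05. The adjusted p alone was under 0.05 for 35.1% of all genes in that interaction.

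**Figure D4:**
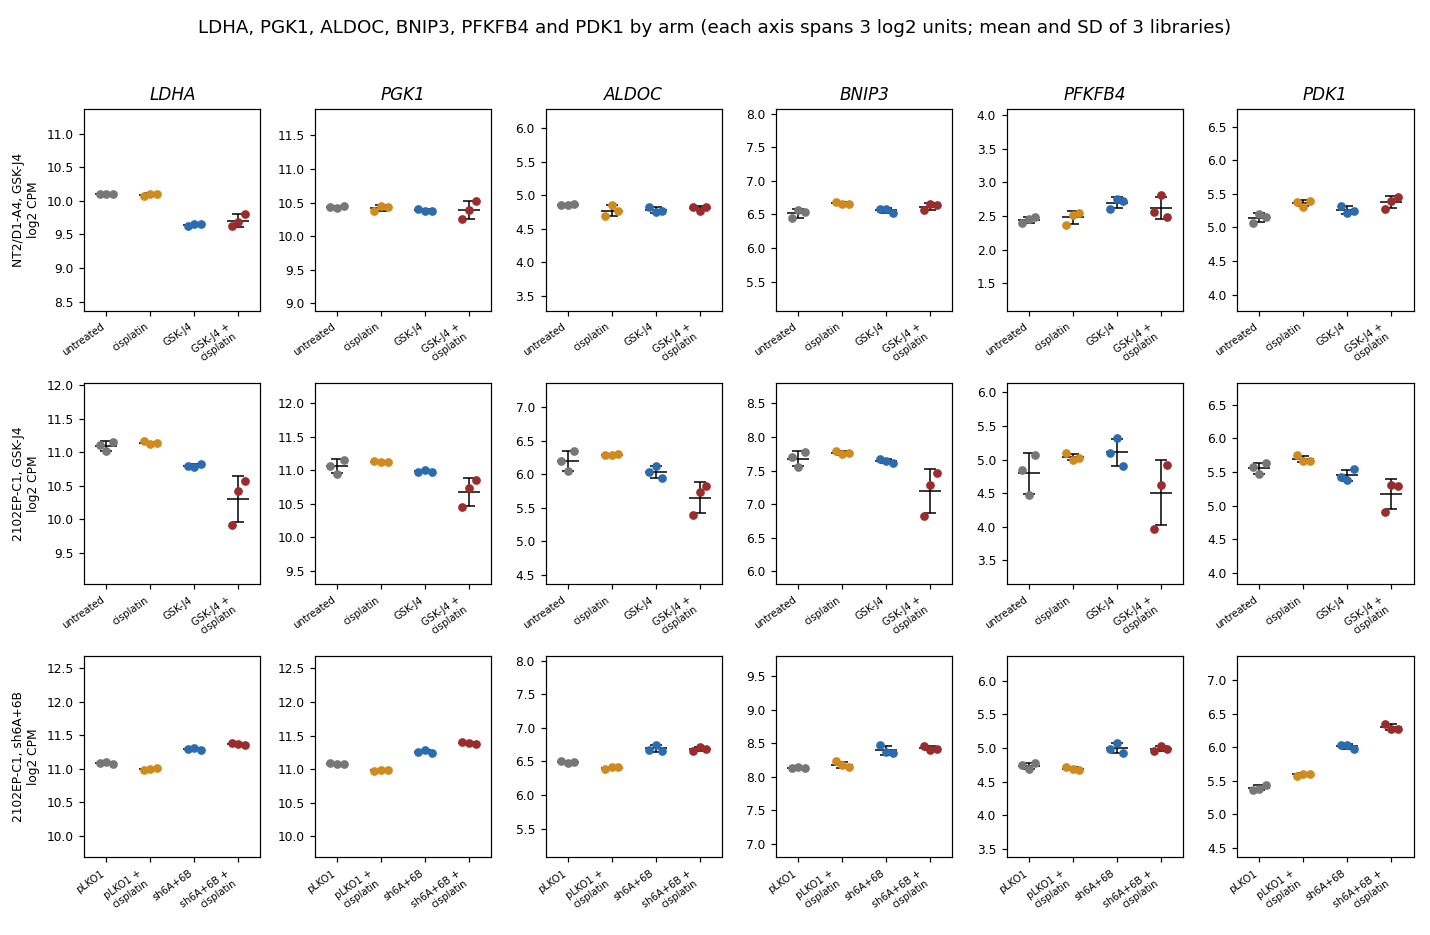
Log2 CPM of LDHA, PGK1, ALDOC, BNIP3, PFKFB4 and PDK1 in the 4 arms of each experiment, with a point per library and black bars for the mean and SD of 3 libraries. In the middle row the 3 libraries of GSK-J4 with cisplatin are spread widely, the first the lowest in every panel (LDHA at 9.91, 10.42 and 10.57), and in the bottom row the sh6A+6B arms stand above the pLKO1 arms.

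Promoters of 4 members with a called interaction are shown beside that of ADM, which rose in all 3 experiments. The interaction calls of LDHA, BNIP3 and PLOD2 were lost without the first combination library, and those of all 4 without the second control library. RefSeq promoter windows (GRCh38.p14, 250 bases before and 50 after the start, 1 window per gene, nearest to the MANE Select start) were found for 33 of the 38 members. The core of the HIF site was searched as ACGTG or GCGTG on either strand, where CACGTG counts on both strands and is also the E-box. Either core was in 27 of 33 member windows (81.8%) and in 62.9% of 11558 windows of genes in the tables. ACGTG alone was in 17 of 33 (51.5%) against 25.8%. The 33 windows include that of CA9, which was in none of the 3 tables. The members were listed as genes of this pathway, so these shares do not test it. Of the 12 members with a called interaction, 12 held either core and 10 held ACGTG, in a set chosen after its values were seen and described here with no test. The 6 windows with no core were those of EGLN3, MXI1, P4HA2, PFKP, PGAM1 and TPI1, of which PGAM1, P4HA2 and PFKP had windows 1627, 762 and 422 bases from the MANE Select start. The 250 bases before the start are given 5′ to 3′ on the gene's strand, with the cores or their reverse complements in capitals, for PFKFB4 (chr3:48556804-48557053, minus), LDHA (chr11:18394313-18394562, plus), BNIP3 (chr10:131981924-131982173, minus), PLOD2 (chr3:146161185-146161434, minus) and ADM (chr11:10304823-10305072, plus).
PFKFB4: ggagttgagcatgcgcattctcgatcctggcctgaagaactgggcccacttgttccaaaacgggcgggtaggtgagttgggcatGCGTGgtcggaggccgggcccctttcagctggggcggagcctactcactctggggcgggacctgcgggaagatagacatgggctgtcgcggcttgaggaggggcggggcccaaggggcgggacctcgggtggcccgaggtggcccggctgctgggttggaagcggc
LDHA: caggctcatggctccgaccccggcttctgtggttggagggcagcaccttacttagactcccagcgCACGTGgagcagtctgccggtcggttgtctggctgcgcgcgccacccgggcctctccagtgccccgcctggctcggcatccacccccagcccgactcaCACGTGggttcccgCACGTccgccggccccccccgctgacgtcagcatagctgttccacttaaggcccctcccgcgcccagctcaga
BNIP3: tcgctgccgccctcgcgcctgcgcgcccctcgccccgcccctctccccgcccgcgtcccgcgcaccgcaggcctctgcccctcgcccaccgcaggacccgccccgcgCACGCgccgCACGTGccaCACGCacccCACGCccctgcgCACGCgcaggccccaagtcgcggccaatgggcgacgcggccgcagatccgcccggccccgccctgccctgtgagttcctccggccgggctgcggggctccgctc
PLOD2: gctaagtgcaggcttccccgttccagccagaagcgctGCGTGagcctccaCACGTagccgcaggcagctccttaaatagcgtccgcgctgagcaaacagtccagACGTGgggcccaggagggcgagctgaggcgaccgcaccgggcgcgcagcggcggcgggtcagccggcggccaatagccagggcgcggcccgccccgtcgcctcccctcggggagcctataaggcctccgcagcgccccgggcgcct
ADM: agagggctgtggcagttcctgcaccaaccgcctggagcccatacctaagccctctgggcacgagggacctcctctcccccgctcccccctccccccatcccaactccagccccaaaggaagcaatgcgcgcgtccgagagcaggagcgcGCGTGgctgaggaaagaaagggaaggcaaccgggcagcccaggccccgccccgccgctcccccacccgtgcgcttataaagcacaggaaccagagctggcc
These stretches held 1 core in PFKFB4, 5 in LDHA, 6 in BNIP3, 3 in PLOD2 and 1 in ADM, which is a match of letters and not a measured binding site.

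The knockdown experiment asked the same with hairpins against KDM6A and KDM6B. With sh6A+6B alone, 8 members rose (6.34% of all genes called higher) and 1 fell (5.74% called lower), none of them a glycolytic enzyme. The other members had a median difference of 0.27 and the enzymes one of 0.03, beside 0 for all genes. ADM was the 1 member that also rose with GSK-J4 in this line and in NT2/D1-A4. It was at 2.90, 2.92 and 2.93 with pLKO1 and at 4.13, 4.09 and 4.02 with sh6A+6B, a rise of 1.16 ± 0.04 (adjusted p = 1.9e-16, limma-trend).

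PLOD2 (GeneID 5352, chr3:146069440-146161184) was at 7.44, 7.46 and 7.50 with pLKO1 and at 8.36, 8.25 and 8.24 with sh6A+6B (0.81 ± 0.03, adjusted p = 2.5e-17, limma-trend). SLC2A1 (GeneID 6513, chr1:42925353-42958868) was at 8.34, 8.31 and 8.34 and at 9.04, 9.08 and 8.96 (0.70 ± 0.02, adjusted p = 1.4e-17). PDK1 was at 5.37, 5.38 and 5.44 and at 6.03, 6.04 and 5.97 (0.61 ± 0.03, adjusted p = 5.7e-15). In these 3 genes the sh6A+6B libraries were above the pLKO1 libraries without overlap. ANKRD37, an ankyrin repeat protein at a low level, was at 0.46, 0.21 and 0.57 and at 1.12, 1.19 and 0.94 (0.67 ± 0.10, adjusted p = 8e-06). PFKFB3, EGLN1 and MXI1, a MYC antagonist, rose by 0.54, 0.52 and 0.50.

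EGLN3 was the faller, at 3.68, 3.75 and 3.64 with pLKO1 and 3.29, 3.23 and 3.30 with sh6A+6B (-0.42 ± 0.04, adjusted p = 6.9e-09, limma-trend), while EGLN1 went from 4.52, 4.58 and 4.61 to 5.13, 5.13 and 5.02. EGLN1 rose and EGLN3 fell in the same libraries, both without overlap of the groups. The difference of HIF1A was 0.00 ± 0.02 (adjusted p = 0.94, limma-trend), and EPAS1 was 0.24 ± 0.02 higher. VEGFA, which rose with GSK-J4, was 0.31 ± 0.04 higher (4.14, 4.1 and 4.22 against 4.50, 4.49 and 4.41), under the limit, and P4HA2 and NDRG1 were 0.10 and 0.16 higher. The enzymes ran from -0.28 for ENO2 to 0.21 for LDHA. ENO2 was thus lower with sh6A+6B and higher with GSK-J4 in the same line, both under the fold limit, and this difference between experiments was not tested.

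Among cisplatin-treated cells, sh6A+6B raised 7 members (6.4% of all genes called higher) and lowered 0 (8.77% called lower; 8 members lower at an unadjusted p under 0.05, limma-trend). These were ADM (1.13 ± 0.04), ANKRD37 (1.00 ± 0.10), PLOD2 (0.82 ± 0.03), PDK1 (0.70 ± 0.03), SLC2A1 (0.65 ± 0.02), MXI1 (0.43 ± 0.06) and the enzyme PGK1 (0.41 ± 0.01). PGK1 (GeneID 5230, chrX:78104248-78129295), phosphoglycerate kinase, was at 10.97, 10.99 and 10.98 with pLKO1 and cisplatin and at 11.40, 11.39 and 11.37 with sh6A+6B and cisplatin. LDHA lay between 10.98 and 11.01 with pLKO1 and cisplatin and at 11.38, 11.37 and 11.35 with sh6A+6B and cisplatin, a difference of 0.37 ± 0.01, just under the limit. PGK1, SLC2A1 and PDK1 had fallen with GSK-J4 among cisplatin-treated cells of the same line, so the called directions of these 3 were opposite in the 2 experiments. Without the first combination library of the GSK-J4 experiment only PDK1 of the 3 was still called lower there (-0.39), while PGK1 (-0.335) and SLC2A1 (-0.348) lay under the fold limit. The difference between the experiments was not tested. Cisplatin in sh6A+6B cells called 0 members by limma-trend or voom, beside 2.48% and 1.04% of all genes, with 25 of 37 at an unadjusted p under 0.05. The adjusted p alone was under 0.05 for 44.8% of all genes in this comparison. VEGFA was 0.32 ± 0.04 lower and PDK1 0.29 ± 0.03 higher with cisplatin in sh6A+6B cells. Over all 15 comparisons, 9 members present were never called: HK1, PFKL, ENO1, ENO2, PKM, SLC2A3, HIF1A, KDM4B and BNIP3L. The share of all genes that were never called is not given here, so this count has no measure beside it.

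Other genes of the pathway, listed apart from the members, were read for pretreatment alone. They were also read for the interaction in 2102EP-C1 with GSK-J4. Of the other hypoxia response genes, 25, 26 and 26 of 29 were present, and pretreatment alone called 8 higher and 2 lower in NT2/D1-A4, 10 and 1 in 2102EP-C1, and 7 and 0 in the knockdown experiment, against the shares of all genes given above for pretreatment alone. The 3 largest changes were DDIT4, an mTORC1 brake (2.74), STC2, a secreted glycoprotein (2.03), and ARNT2, a HIF beta subunit from the list of pathway regulators (1.2), in NT2/D1-A4. In 2102EP-C1 with GSK-J4, ARNT2 (1.19) and BHLHE40, a transcriptional repressor (0.78), were among the 3 largest. The controls of BHLHE40 there were far apart, at 3.35, 2.85 and 3.83. In the knockdown experiment the 3 largest were LOX, a collagen crosslinking oxidase (1.07), BHLHE40 (0.85) and PDK2, another pyruvate dehydrogenase kinase, which was lower (-0.77), opposite to PDK1. Of 12 other HIF regulators, 11 were present in each table, with 2 called higher in NT2/D1-A4, 1 higher and 1 lower in 2102EP-C1, and 0 in the knockdown experiment. Of 29 other glycolysis and lactate genes, 24 were present, with 1 higher in NT2/D1-A4, 0 in 2102EP-C1, and 4 lower in the knockdown experiment. The counts of these last 2 lists are also for pretreatment alone and stand beside the same shares of all genes. For the interaction in 2102EP-C1, 3 of 26 other hypoxia response genes were called lower, with a median of -0.232. Of 24 other glycolysis and lactate genes 1 was called lower (median -0.037), and of 11 other regulators 0 (median 0.011). The share of all genes called lower was 0.663%, and 0 genes of these lists were called higher (0.194% of all genes).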

How the data were processed

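Poly(A) RNA from 36 libraries was sequenced from a stranded kit. Per the study's methods, the authors trimmed reads, aligned them with STAR to GRCh38.p14, assigned them to genes with featureCounts, dropped genes that did not exceed 0.5 CPM in 2 or more samples, and scaled the libraries by TMM; tool versions and the strand setting were not given in the sources used here. The deposited values are log2 CPM with a prior count of 3, from which whole read counts were recovered (100.0% of values under 50 reads lay within 0.05 of a whole number). These gave depths of 26.8 to 49.5, 30.2 to 53.6 and 79.4 to 100.9 M (mega) reads per library, which differ most in how well low genes are measured.

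Each table of 12 libraries was fitted separately with limma-trend (limma 3.58.1, R 4.3.3) with 1 mean per arm, and 5 contrasts were tested, two-sided, with BH adjustment over all genes of the table. Members past both limits, 1.3 in fold change and 0.05 in adjusted p, were called. On simulated counts for pretreatment alone, 200 of 200 planted genes (log2 change of 1) were recovered in each table, with 6, 7 and 4 false calls. Planted genes had over 200 reads on average, and the simulated spread was fixed for all genes and libraries. The simulation thus checks that the code runs and does not cover changes near the fold limit, low genes or a library that stands apart. Symbols were matched by GeneID for 16414 of 16431, 17020 of 17035 and 16443 of 16459 genes. Levels per kilobase used MANE Select transcript lengths. No 2 libraries of an arm agreed within sampling noise (chi-square per gene of at least 1.67).

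Members given with at least their change were, in each comparison, those called (beyond 8, the 5 largest rises and 5 largest falls). For pretreatment alone, HIF1A, EPAS1, EGLN1 and EGLN3 were given whatever their values, with the 3 called genes of the other lists with the largest change. Library values were printed for only part of these. A gene of the other lists that this rule names is not reported here. Some further members were named after their values were seen. The members and lists were chosen with earlier results of these data known. Alternatives were plain library sizes, a prior count of 0.5, a low-value filter, voom on recovered reads, a replicate block, only the libraries compared, and leaving out each library.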

Additional observations from a re-analysis of the deposited data

Results flagged for a closer look

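In 2102EP-C1 cells the cisplatin response differed with GSK-J4, by the interaction term of limma-trend, for 12 members. On the log2 scale the differences (cisplatin effect after GSK-J4 minus cisplatin effect without it) were -0.84 for PFKFB4, -0.57 for PFKFB3, -0.54 for LDHA, -0.53 for BNIP3, -0.5 for PLOD2, -0.49 for INSIG2, -0.48 for SLC2A1, -0.48 for ALDOC, -0.44 for P4HA1, -0.42 for PDK1, -0.41 for HK2 and -0.38 for PGK1. The first library of GSK-J4 with cisplatin was the lowest of all 12 libraries for each of them. Without it SLC2A1 (-0.39), PFKFB3 (-0.47) and PFKFB4 (-0.575) were still called. Without the second control library SLC2A1 (-0.43), PFKFB3 (-0.55) and HK2 (-0.42) were still called, but PFKFB4 was not (-0.68, adjusted p = 0.1, limma-trend). The PFKFB4 call was also lost without the first control library (adjusted p = 0.065) and without any 1 of the cisplatin libraries (0.061 to 0.076). It was lost too without the first or the second GSK-J4 library (0.071 and 0.082, all limma-trend). P4HA1 lost its call without each of the same libraries.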

How the results depend on the processing

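No member that was called changed direction under any alternative run. Members that were not called were not followed in this way, and some changed sign. In the 2102EP-C1 interaction, 14 of the 14 enzymes were lower with all libraries and 13 without the second control. The counts of members called in 2102EP-C1 with GSK-J4 depended on single libraries. Over the fits that left out 1 library, they ran from 0 to 11 for cisplatin after GSK-J4 (6 with all libraries), from 10 to 22 for GSK-J4 within cisplatin (18), from 3 to 14 for the interaction (12), from 2 to 4 for cisplatin alone (2) and stayed at 5 for GSK-J4 alone. The interaction count was 3 without the first combination library and 3 without the second control, and 7 without the first control, the first or second cisplatin, or the first GSK-J4 library. The cause was not tested beyond the values of these libraries. In NT2/D1-A4 the ranges were 8 to 10 for GSK-J4 alone, 0 to 1 for cisplatin alone, 6 to 8 for GSK-J4 within cisplatin and 0 for the other comparisons. In the knockdown experiment they were 9 for sh6A+6B alone, 6 to 9 for sh6A+6B within cisplatin, 0 to 1 for the interaction and 0 for cisplatin in either background. Of the values of single members, 822 kept their call when a library was left out and 78 lost it, 69 of them in 2102EP-C1 with GSK-J4. Under the other alternatives 432 kept it and 4 lost it: PFKP (-0.361) and LDHA (-0.354) in NT2/D1-A4 with plain library sizes, and ALDOC (-0.375) and PGK1 (-0.373) in 2102EP-C1 with voom.

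With the replicate block the counts of calls were unchanged, at 9, 0, 0, 7 and 0 in NT2/D1-A4, 5, 2, 6, 18 and 12 in 2102EP-C1 with GSK-J4, and 9, 0, 0, 7 and 0 in the knockdown experiment, in the order GSK-J4 or sh6A+6B alone, cisplatin alone, cisplatin after pretreatment, pretreatment within cisplatin and interaction. The deviations of same-numbered libraries correlated above 0.1 in 4, 1 and 5 of 18 pairs, with the highest at 0.42, 0.12 and 0.33. Whether same-numbered libraries were handled together cannot be told from these values. With 3 libraries per arm and depths of at least 26.8 M reads, changes near the fold limit of 1.3 are the least certain, and so are low genes such as ANKRD37 and ALDOA.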
